A study of Homo sapiens with 4 samples.

Results

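The ATP-binding cassette (ABC) transporter genes were taken as every probe of the array table that carries 1 gene symbol made of ABC, a letter from A to G and a number. ABCC5 was left out. The rule gave 69 probes of 41 genes, out of 48801 probes on the array and 18852 named genes. By subfamily there were 12 genes in A, 8 in B, 9 in C, 3 in D, 1 in E, 3 in F and 5 in G. Of the 41 genes, 21 had a single probe and 20 had from 2 to 6. Where a gene had several probes, they were averaged.

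The study used H520 and LK2, both established lines grown from squamous carcinomas of the human lung. One sample of each line was given pooled siRNAs against SOX2, a transcription factor gene, and one was given scrambled siRNAs as the control. After 48 h the RNA was measured on Illumina bead arrays, which read each transcript by the brightness of a short probe in a single colour. The 4 groups (H520 control, H520 SOX2 siRNA, LK2 control, LK2 SOX2 siRNA) had 1 array each, so every sample had received some siRNA and no group had a replicate.

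ABC proteins bind and hydrolyse ATP on paired nucleotide-binding domains, and most of them use that energy to move a substrate across a membrane. Members of subfamilies B, C and G pump drugs, their glutathione or glucuronide conjugates, bile salts or sterols out of cells, and they are known for multidrug resistance of tumours. Subfamilies A and G handle lipids, D works in peroxisomes and lysosomes, and E and F have no membrane domain and act on ribosomes and translation.

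All values are log2, centred per probe by the authors, so they show differences between arrays and not how much transcript was present. A gene near 0 on every array may have been unexpressed or expressed alike, and the labelled cell type could not be checked by marker levels. Lists of squamous (6 of 8 genes measured), adenocarcinoma (4 of 4), fibroblast (5 of 5), endothelial (4 of 4) and immune (4 of 5) markers held 0 genes called for SOX2 siRNA, with list medians from -0.18 to 0.07 in H520 and from -0.08 to 0.14 in LK2. Of all 18852 genes 1 was called for SOX2 siRNA. Between the lines DSG3, a squamous desmosome gene (0.68 ± 0.14), and LUM, a fibroblast matrix gene (0.56 ± 0.13), were called higher in LK2. In these lists 0 genes were called lower. The shares of all genes were 14.0% higher and 13.4% lower. SOX2 was at -0.66 in H520 and -2.11 in LK2, SOX2 siRNA minus control. Its change over both lines, -1.38 ± 0.31, did not pass the test (limma, adjusted p = 0.33). Errors after ± are standard errors of a limma fit with cell line and siRNA as terms over the 4 arrays. The fit had 1 residual degree of freedom, which is the difference between the responses of the lines. A gene was called at an adjusted p under 0.05 over all 18852 genes. Within a line, or between the control arrays, there is 1 array against 1 and no test.

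One ABC gene stood far from the others in the response to SOX2 siRNA. ABCC3 encodes MRP3, a pump of glucuronide and other organic anion conjugates at the basolateral membrane of epithelia. Its single probe read -0.68 in H520 control and 0.55 in H520 SOX2 siRNA, and -1.59 in LK2 control and 0.19 in LK2 SOX2 siRNA. Both SOX2 siRNA arrays were above both control arrays. The differences were 1.23 in H520, or 2.34-fold, and 1.78 in LK2, or 3.42-fold. Among all 18852 genes these were the 17th highest value in H520 and the 19th highest in LK2, and the mean of both was the 9th highest.

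Over both lines the ABCC3 difference was 1.502 ± 0.15, and it was higher in 2 of 2 lines, but it did not pass at the threshold (limma, adjusted p = 0.0766). The unadjusted p was 4.47e-05. With a variance trend in limma the adjusted p was 0.036, with 1 probe for each gene 0.0158, and with every probe tested separately 0.0167. Under the other settings run it lay between 0.0855 and 1, the last without the block for cell line. The response was larger in LK2 than in H520 by 0.55, a difference that could not be tested.

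No other member reached 1.5-fold in either line. In H520, 1 of 41 members was at least 1.5-fold higher, against 0.806% of all genes, and 0 were lower, against 1.07%. In LK2, 1 was higher, against 1.90% of all genes, and 0 were lower, against 1.30%. By limma over both lines 0 members were called higher, against 0.00530% of all genes (1 gene), and 0 lower, against 0%. At an unadjusted p under 0.05 there were 3 members, ABCC3, ABCG5 and ABCF3, and 8.40% of all genes. Without ABCC3, the 40 other members ranged from -0.45 to 0.26 in H520 and from -0.31 to 0.37 in LK2.

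The members as a list lay close to the whole table. The middle value was -0.02 for H520 and 0.01 for LK2, and the median absolute difference over both lines was 0.07, against 0.09 for all genes. Of the 41 members 12 were above 0 in both lines, 12 were below 0 in both and 17 had opposite signs. The share with 1 sign in both lines was 58.5%, against 54.0% of all genes. Across the 41 members Pearson's r between the lines was 0.79 and Spearman's rho 0.32. Without ABCC3 they were 0.31 and 0.27 over 40 genes, so the high r rests on that gene. The points share the 4 arrays and carry no test.

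**Figure D1:**
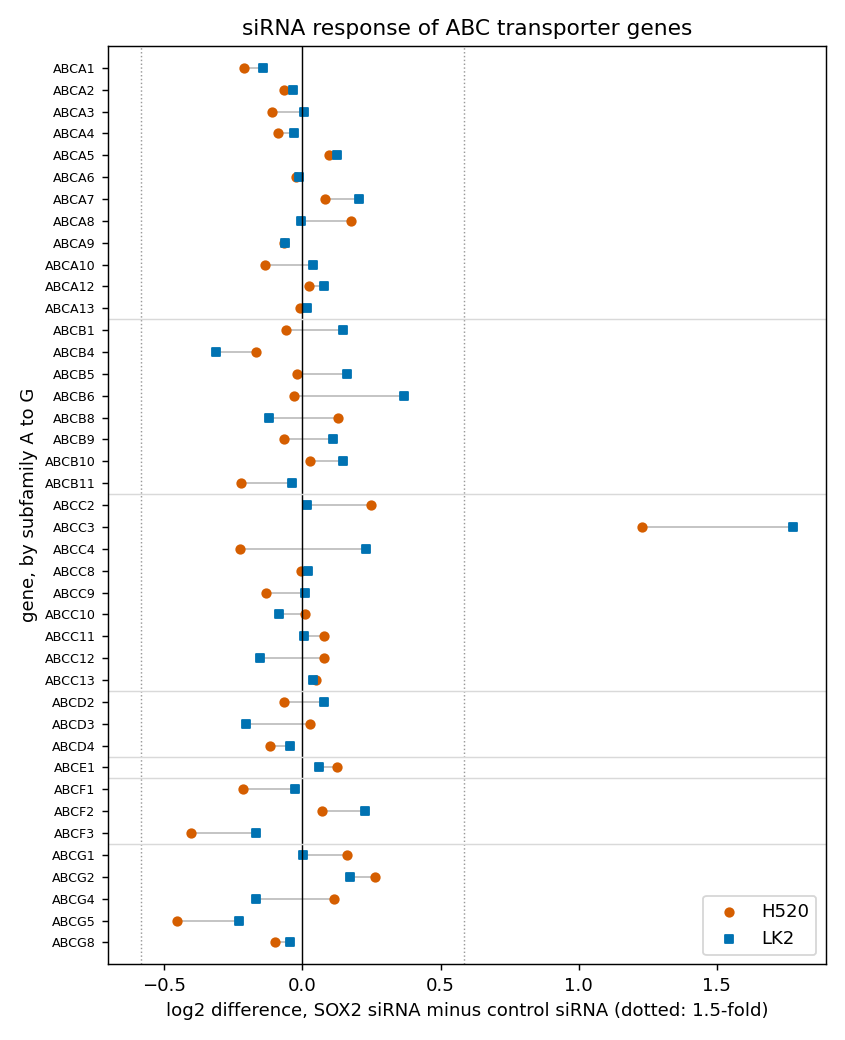
Difference between SOX2 siRNA and control siRNA on the log2 scale (horizontal axis) for the 41 ABC transporter genes (vertical axis, by subfamily), with 1 circle for H520 and 1 square for LK2, each from 1 pair of arrays. ABCC3 lies at 1.23 and 1.78, and every other gene lies inside the dotted lines at 1.5-fold.

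**Figure D2:**
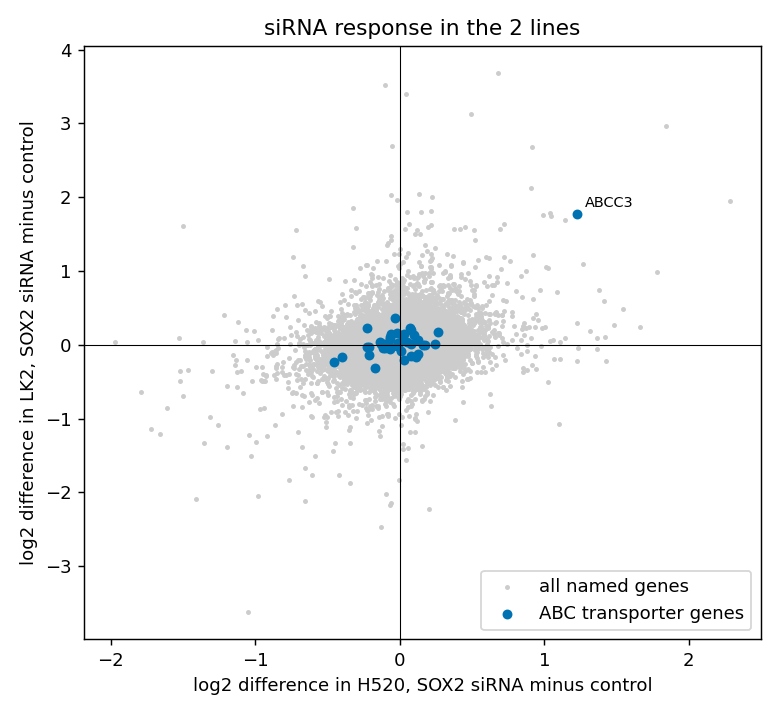
Log2 difference, SOX2 siRNA minus control, in H520 (horizontal) and LK2 (vertical) for all 18852 named genes (grey) and the 41 ABC transporter genes (blue). ABCC3 lies at the upper right edge, and the other 40 ABC genes lie within the bulk around 0.

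Among drug and conjugate efflux genes, 8 of the 10 listed were measured, and ABCC1 and ABCC6 were not analysed here. The list median was 0.08 in each line. Of the 8 genes 4 were above 0 and 0 below 0 in both lines, against 5091 and 5097 of all 18852 genes. Apart from ABCC3 these 4 efflux genes included ABCG2, the breast cancer resistance protein gene, which exports many anticancer drugs. ABCG2 read -0.10 in H520 control and 0.16 in H520 SOX2 siRNA, and -0.15 in LK2 control and 0.03 in LK2 SOX2 siRNA. Both treated arrays were above both controls, and the mean difference was 0.22 ± 0.10, which did not pass (limma, adjusted p = 0.65).

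The remaining efflux genes were near 0 or moved differently by line. ABCC2 (MRP2, the apical partner of MRP3 in secretory epithelia) was at 0.25 in H520 and 0.02 in LK2. ABCB1, the gene of P-glycoprotein, was at -0.06 and 0.15. ABCC4 (MRP4, which exports cyclic nucleotides) was at -0.23 and 0.23, opposite ways in the lines. Its probes disagreed: one was at -0.43 in H520 and 0.40 in LK2 and the other at -0.03 and 0.06. ABCC10, ABCC11 and ABCC12, later members of the MRP group, were at 0.01 and -0.08, at 0.08 and 0.01, and at 0.08 and -0.15. None of these passed the test (limma, adjusted p from 0.838 for ABCC2 to 0.999 for ABCC4).

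Genes of cholesterol and lipid export centred on -0.09 (H520) and -0.04 (LK2). Of these 12 genes 7 were below 0 in both lines and 3 above 0 in both, against 5097 and 5091 of all 18852 genes. ABCG5, which pairs with ABCG8 to return plant sterols and cholesterol to gut and bile, had the lowest mean of all members. ABCG5 read 0.29 in H520 control and -0.16 in H520 SOX2 siRNA, and -0.08 in LK2 control and -0.31 in LK2 SOX2 siRNA. Both treated arrays were below both controls. The difference was -0.34 ± 0.11 (limma, adjusted p = 0.476). ABCG8 was at -0.10 and -0.04.

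ABCB4, the phosphatidylcholine exporter of bile canaliculi, was at -0.17 in H520 and -0.31 in LK2 (-0.24 ± 0.10, limma, adjusted p = 0.615). ABCA1, which loads cholesterol onto apolipoprotein A-I, was at -0.21 and -0.14, and ABCA7, a phospholipid exporter, was at 0.08 and 0.20. In subfamily A as a whole the values ran from -0.21 to 0.17 in H520 and from -0.14 to 0.20 in LK2. ABCA7 was the highest of its 12 members and ABCA1 the lowest over both lines. That range holds the chromosome 17 cluster of neighbouring genes ABCA8, ABCA9, ABCA6, ABCA10 and ABCA5, which ran from -0.14 to 0.17 in H520 and from -0.06 to 0.13 in LK2. ABCG1, which exports cholesterol to high-density lipoprotein, was at 0.16 and 0.00, but its 6 probes ran from -0.27 to 0.57 in H520 and from -0.17 to 0.18 in LK2.

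Transporters of mitochondria, peroxisomes and lysosomes had medians of -0.03 and 0.08 over 7 genes. ABCB6, a porphyrin transporter of mitochondria and lysosomes, was at -0.03 in H520 and 0.37 in LK2, the highest LK2 value after ABCC3. ABCD3, which imports branched and very long chain acyl-CoA into peroxisomes, was at 0.03 and -0.20, and its relative ABCD2 at -0.07 and 0.08. The sulfonylurea receptor genes ABCC8 and ABCC9, regulatory subunits of ATP-sensitive potassium channels, were at -0.01 and 0.02 and at -0.13 and 0.01. In these groups 0 genes were called by limma, against 1 of all 18852 genes.

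ABCE1, a ribosome recycling factor, was at 0.13 and 0.06, and ABCF1, an initiation factor partner, at -0.21 and -0.03. ABCF3 read 0.20 in H520 control and -0.20 in H520 SOX2 siRNA, and -0.36 in LK2 control and -0.53 in LK2 SOX2 siRNA. Each treated array was below the control of its line, but the treated and control values overlapped across lines. The mean difference was -0.29 ± 0.11 and did not pass (limma, adjusted p = 0.567). ABCF2, another member of the translation-related subfamily, was at 0.07 and 0.23. Its 3 probes ran from -0.05 to 0.15 in H520 and from 0.03 to 0.45 in LK2.

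Between the lines the median absolute difference of the members on control arrays was 0.19, next to 0.10 and 0.08 for SOX2 siRNA in H520 and LK2. On the control arrays 2 members, ABCB4 and ABCC4, were at least 2-fold higher in LK2, against 3.85% of all genes, and 1, ABCC2, was lower, against 3.24%. At 1.5-fold there were 3 higher, against 9.06% of all genes, and 4 lower, against 8.57%. With siRNA as a term, limma called 4 members higher in LK2, against 14.0% of all genes, and 8 lower, against 13.4%. The median of the members on the control arrays was -0.05, against 0.01 for all genes, whose median absolute difference was 0.20. Of the 12 members called, 8 were called under every alternative run per gene in which they were tested. The other 4 (ABCA1, ABCC3, ABCE1 and ABCF3) lost the call under at least 1. Of the 8, ABCB1, ABCB9, ABCC4 and ABCC8 did not enter 1 alternative, the test of only genes above the median siRNA difference. With every probe tested separately, 1 of the 3 ABCB9 probes was not called (-0.33, limma over probes, adjusted p = 0.0968).

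ABCC2 had the lowest value. Its single probe read -0.12 in H520 control, 0.12 in H520 SOX2 siRNA, -3.62 in LK2 control and -3.60 in LK2 SOX2 siRNA. Both LK2 arrays lay far below both H520 arrays, and the LK2 arrays differed from each other by 0.02. The difference on control arrays was -3.50, or 11.3-fold lower in LK2, and that on SOX2 siRNA arrays was -3.73. On controls it was the 25th lowest of 18852 genes. Over both siRNAs the difference was -3.61 ± 0.11 (limma, adjusted p = 2.36e-05). It was -2.48 when the columns were quantile normalized again (limma, adjusted p = 0.00187). That step gives every column the same spread. Before it, the centred values ran from -2.94 to 1.75 in H520 control and from -6.68 to 6.59 in LK2 control. The smaller value therefore cannot show whether the size of the difference depends on the scaling.

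ABCC4 was higher in LK2 by 1.08 on control arrays and 1.53 on SOX2 siRNA arrays, with 1.30 ± 0.14 over both (limma, adjusted p = 0.00109). Its 2 probes gave 0.66 and 1.49 on controls and 1.49 and 1.57 on SOX2 siRNA arrays, so they agreed on the side but not the size on controls. ABCC3 was lower in LK2 by -0.91 on controls and by -0.36 on SOX2 siRNA arrays, so the gap was smaller after SOX2 siRNA. That gave -0.63 ± 0.15 (limma, adjusted p = 0.0232), but -0.31 with an adjusted p of 0.378 when the columns were quantile normalized again and an adjusted p of 0.561 without siRNA as a block.

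ABCB4 and ABCB1, close relatives that are neighbours on chromosome 7, were both higher in LK2. ABCB4 read 0.08 and -0.08 in H520 (control, SOX2 siRNA) and 1.79 and 1.47 in LK2. It was 3.25-fold higher in LK2 on controls, and the difference over both siRNAs was 1.63 ± 0.10 (limma, adjusted p = 0.000197). For ABCB1 one probe read 0.02 and -0.06 in H520 and 0.90 and 0.91 in LK2, and the other 0.02 and -0.02 in H520 and 0.47 and 0.74 in LK2. For both probes the LK2 arrays lay above the H520 arrays. The gene's difference was 0.76 ± 0.11 (limma, adjusted p = 0.00336).

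Of the drug efflux list, ABCB1 and ABCC4 were called higher in LK2 and ABCC2 and ABCC3 lower. The promoters of ABCC2, ABCC4 and ABCB1 are shown because these pumps kept their call between the lines under every alternative in which they were tested. Sequences are RefSeq's, build GRCh38.p14, and each is the 250 bases before a listed transcription start, 5′ to 3′ on the gene's strand. ABCB1 has 2 listed starts, numbered by rising coordinate, so on its minus strand the second lies upstream of the first. Capitals mark the antioxidant response core TGACNNNGC, which NRF2 binds, the SOX motif ACAATG or the CCAAT box CCAAT, searched on both strands.
ABCC2, chr10:99782390-99782639, plus strand: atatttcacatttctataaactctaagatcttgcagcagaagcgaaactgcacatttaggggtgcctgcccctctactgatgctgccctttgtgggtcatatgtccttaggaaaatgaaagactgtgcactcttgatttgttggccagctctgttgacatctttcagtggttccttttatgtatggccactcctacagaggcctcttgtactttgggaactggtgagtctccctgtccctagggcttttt
ABCC4, chr13:95301452-95301701, minus strand: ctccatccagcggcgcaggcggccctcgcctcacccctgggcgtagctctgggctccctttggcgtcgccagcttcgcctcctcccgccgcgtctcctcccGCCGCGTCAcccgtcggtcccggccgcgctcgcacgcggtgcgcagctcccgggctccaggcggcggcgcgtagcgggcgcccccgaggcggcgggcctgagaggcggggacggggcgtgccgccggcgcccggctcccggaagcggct
ABCB1, first start, chr7:87600885-87601134, minus strand: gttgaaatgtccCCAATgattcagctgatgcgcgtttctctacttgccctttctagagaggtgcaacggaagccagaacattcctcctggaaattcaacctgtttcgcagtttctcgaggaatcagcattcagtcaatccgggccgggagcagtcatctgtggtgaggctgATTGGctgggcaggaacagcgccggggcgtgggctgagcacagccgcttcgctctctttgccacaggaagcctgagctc
ABCB1, second start, chr7:87713296-87713545, minus strand: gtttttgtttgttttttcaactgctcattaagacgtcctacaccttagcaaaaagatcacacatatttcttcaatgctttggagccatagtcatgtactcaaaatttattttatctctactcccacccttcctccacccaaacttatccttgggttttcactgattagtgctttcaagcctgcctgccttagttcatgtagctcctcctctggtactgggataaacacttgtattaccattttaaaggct

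ABCC2 and the second ABCB1 start held none of the 3 motifs in this window. ABCC4 held 1 antioxidant response core, GCCGCGTCA on the reverse strand, beginning 149 bases before the start. The first ABCB1 start held 2 CCAAT boxes, at 238 and, on the reverse strand as ATTGG, at 79 bases before the start. Of the 41 members, 33 matched a promoter, with 50 starts in all. The antioxidant response core was in 9 of these 50, the SOX motif in 2 and the CCAAT box in 11, against 10.9%, 9.29% and 32.0% of all 35116 promoter windows of that length. A match describes letters only.

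**Figure D3:**
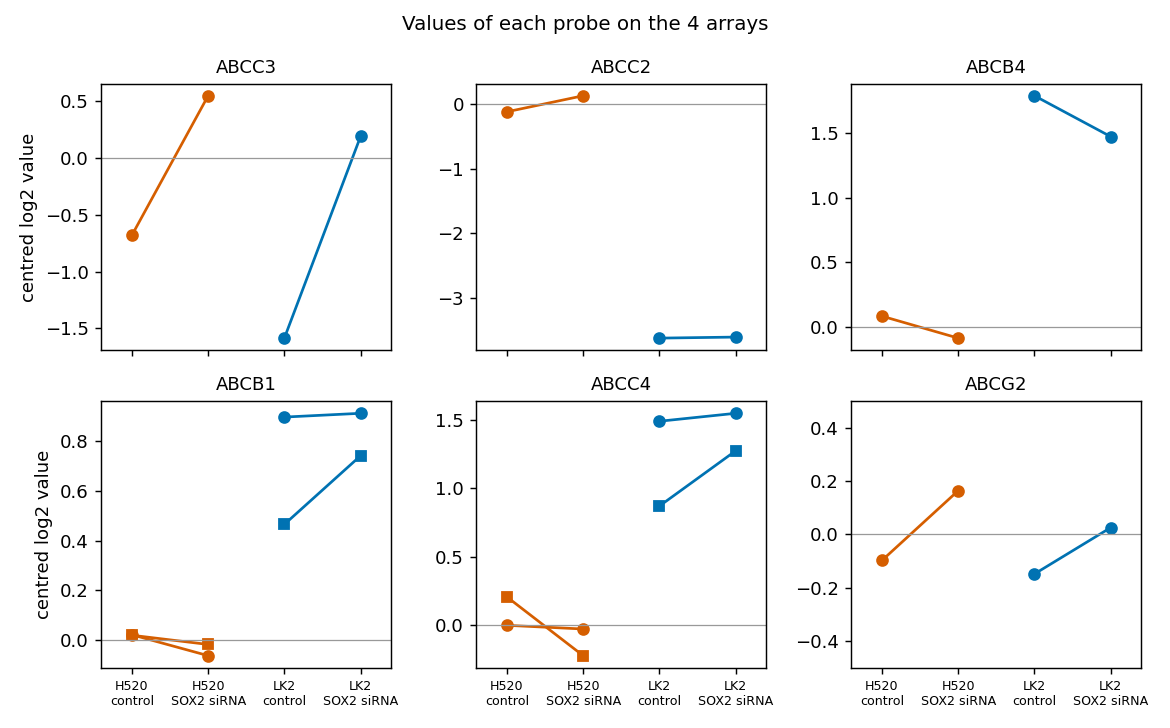
Centred log2 values (vertical axis, own scale in each panel) of every probe of 6 efflux and lipid genes on the 4 arrays, H520 in orange and LK2 in blue, with lines joining the control and SOX2 siRNA array of a line and marker shapes standing for probes. ABCC3 is higher with SOX2 siRNA in both lines, ABCC2 is near -3.6 on both LK2 arrays, and ABCB4, ABCB1 and ABCC4 are above H520 on both.

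Outside the drug pumps, ABCD3 was lower in LK2. It read 0.32 and 0.34 in H520 (control, SOX2 siRNA) and -0.43 and -0.63 in LK2, a difference of -0.86 ± 0.11 (limma, adjusted p = 0.00232). ABCB9, a lysosomal peptide transporter, was lower by -0.68 on controls and -0.51 on SOX2 siRNA arrays (-0.60 ± 0.11, limma, adjusted p = 0.00802). Its probes were at -0.92, -0.64 and -0.49 on controls and at -0.76, -0.58 and -0.18 on SOX2 siRNA arrays, a gap of 0.58 in the latter. ABCC8 was lower by -0.55 and -0.53 (-0.54 ± 0.10, limma, adjusted p = 0.00939). ABCB6 was higher in LK2 by 0.34 and 0.73 (0.53 ± 0.13, limma, adjusted p = 0.0246).

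Smaller line differences passed for ABCF3 (-0.45 ± 0.11), ABCA1 (-0.39 ± 0.10) and ABCE1 (-0.36 ± 0.10), all lower in LK2, with limma adjusted p-values of 0.0272, 0.0334 and 0.0417. ABCF3 and ABCA1 did not pass after renewed quantile normalization (adjusted p = 0.169 and 0.125) or without siRNA as a block (0.104 and 0.0691). ABCA1 and ABCE1 did not pass when only genes above the median siRNA difference were tested (0.0524 and 0.0636). ABCF1 was at -0.45 on controls and -0.27 on SOX2 siRNA arrays and ABCB11, the bile salt export pump gene, at -0.43 and -0.25, and both just missed the threshold (limma, adjusted p = 0.0518 and 0.0609) but passed with a variance trend (0.0413 and 0.0489).

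Of the members, 32 of 41 differed by less than 0.5 between the lines on controls, among them ABCG2 (-0.05) and the 5 genes of the chromosome 17 cluster (-0.19 to 0.08). Some of the gene means cover probes that disagree. For ABCG1 one of 6 probes was at -1.63 on controls and -2.26 on SOX2 siRNA arrays (limma over probes, adjusted p = 5.85e-05), while the other 5 ran from -0.28 to 0.34 on controls. The gene mean was -0.28 on controls and not called (limma, adjusted p = 0.0505), and the value moved with the setting. It was called with a variance trend (adjusted p = 0.04) and with columns centred on their medians (0.0485). With the median of its probes in place of the mean the difference over both siRNAs was -0.03 in place of -0.36 (adjusted p = 0.888). ABCF2 probes ran from -0.47 to 0.48 on controls, and ABCA2 probes were at -0.17 and 0.32. ABCA5 probes ran from -0.15 to 0.38 in the LK2 siRNA response. With ABCB9 and ABCC4 above, 6 genes had probes more than 0.5 apart in at least 1 difference.

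**Figure D4:**
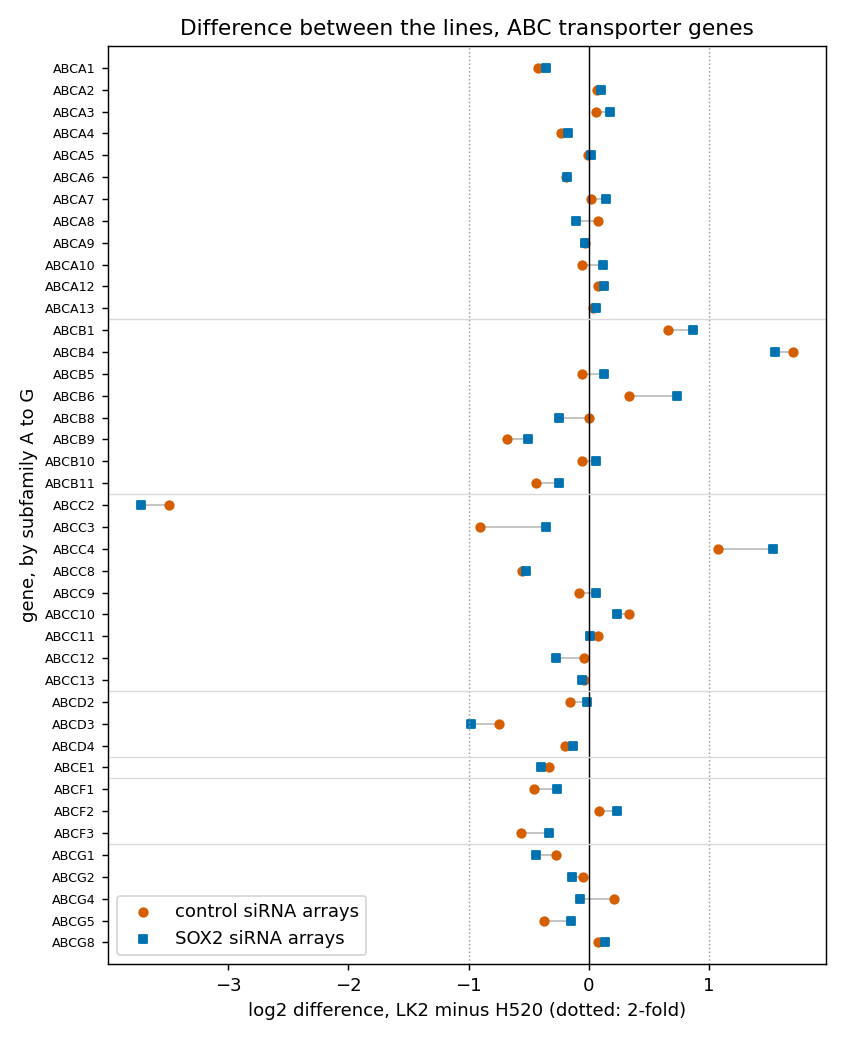
Log2 difference between LK2 and H520 (horizontal axis) for the 41 ABC transporter genes (vertical axis, by subfamily), with circles for the control siRNA arrays and squares for the SOX2 siRNA arrays, 1 array per line each. ABCC2 lies at -3.50 and -3.73, ABCB4 at 1.70 and 1.56 and ABCC4 at 1.08 and 1.53, and most genes lie between the dotted lines at 2-fold.

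The genes nearest to ABCC3 in its 2 siRNA differences and its line difference on controls, by summed absolute distance over the 4 arrays, were ADAMTSL2 (distance 0.254) and SFN (0.289). ADAMTSL2 was at 1.05, 1.75 and -0.86 and SFN at 0.99, 1.76 and -0.87, next to 1.23, 1.78 and -0.91 for ABCC3. CXCL8 (1.46), RUNX3 (1.53) and DUSP19 (1.54) followed at a clear distance.

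Other genes of these pathways were taken from lists, and their calls between the lines are to be read against the shares of all genes, 14.0% higher and 13.4% lower in LK2. For SOX2 siRNA 1 of all 18852 genes was called, so 0 calls in a list say little about it. Of all genes, 5091 were above 0 and 5097 below 0 in both lines. Of 14 measured transcription regulators of ABC genes, 0 were called for SOX2 siRNA, and 9 were above 0 and 3 below 0 in both lines. NFE2L2, the gene of NRF2, was at 0.41 in H520 and 0.72 in LK2 (0.57 ± 0.12, limma, adjusted p = 0.298). Between the lines 2 of the 14 were called higher in LK2 (NFE2L2 and ARNT) and 2 lower (NR1H3, the liver X receptor alpha gene, at -0.80 ± 0.11, and PPARD). Of 24 glutathione and conjugation enzymes, only some of which make conjugates that MRP pumps export, 0 were called for SOX2 siRNA. In both lines 7 were above 0 and 4 below 0. Between the lines 5 of the 24 were called higher in LK2, led by EPHX1 (2.62 ± 0.15), and 7 lower, led by GSTA4 (-2.27 ± 0.14).

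Of 14 measured drug and organic anion carriers, not all of them uptake carriers, 0 were called for SOX2 siRNA. Between the lines 3 of the 14 were called higher in LK2, led by the prostaglandin carrier gene SLCO2A1 (3.88 ± 0.23). The others were SLC19A1 and SLC47A1. In LK2 2 were called lower, led by SLCO4A1 (-1.73 ± 0.10). Of 12 measured sterol efflux partners and liver X receptor targets 0 were called for SOX2 siRNA and 5 were called higher and 0 lower in LK2, led by NPC1 (1.93 ± 0.17). Set against 14.0% and 13.4% of all genes, these lists carried no test of their own. With SOX2 siRNA in LK2, 3 of the 12 sterol genes were at least 1.5-fold higher (APOE 1.35, NPC1 0.87, SCARB1 0.72), and 0 were lower. There 1 regulator (NFE2L2), 2 enzymes (EPHX1 and GCLM) and 1 carrier (SLCO2A1) were also higher, and 1 enzyme (GSTA4) was lower. In H520 1 enzyme (MGST3) was past 1.5-fold, higher. Of all genes 1.90% were higher and 1.30% lower in LK2, and 0.806% and 1.07% in H520. Among 3 ABC proteins with other symbols, TAP1, a peptide transporter subunit for antigen presentation, was lower in LK2 (-2.33 ± 0.15, limma, adjusted p = 0.000204), and TAP2 and CFTR were not called. For SOX2 siRNA TAP1 was at -0.50 and 0.06.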

How the data were processed

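Expression was measured once per group on 4 arrays. The authors deposited log2 values for 48801 probes, with equal column means (0.00475) and medians between -0.000497 and 0.00118. How the background was corrected, which arrays set the centre and which tools were used is not stated in any source at hand. A second table held linear scanner values in 4 columns whose names match no sample. These entered no result, and were read as a set only to settle the log base. Each difference between arrays was set against the pair of log2 scanner columns whose difference correlated best with it across probes. The within-line differences correlated at 0.993 and 0.994 in absolute value, with SD ratios of 1.07 and 0.901. The differences between the lines matched less well, at 0.892 to 0.908, with SD ratios from 0.869 to 0.881. No detection value was used.

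Probes were named from the platform annotation (28096 with 1 symbol, 13 with several, 20692 not listed), of which 28057 matched RefSeq by Entrez identifier. Fits over all 18852 genes used limma 3.58.1 in R 4.3.3, two-sided, with Benjamini-Hochberg adjustment, 1 residual and 5.19 prior degrees of freedom. The fit was also run on simulated data with the same noise SD for every gene, which does not vouch for the calls here. The labels do not say whether cultures were separate experiments, so p-values rest on these arrays alone. The variance of each gene was drawn towards a prior pooled over all 18852 genes. For the siRNA difference the lines served as replicates, and for the line difference the siRNA conditions did. Standard errors and p-values therefore do not measure the spread between cultures of a line. Each siRNA array is paired with the control array of its own line by the labels.

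The members and lists were chosen with earlier results of these data known. Genes were named by rule: the drug efflux list, the 10 largest siRNA and the 10 largest control line differences, the highest and lowest of each subfamily, called genes, members past 1.5-fold, and genes whose probes differ by over 0.5. Alternatives were other probe summaries, variance settings, scalings, a filter and no block. Versions of other tools were Python 3.11.15, pandas 2.3.3 and numpy 2.4.6.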

Additional observations from a re-analysis of the deposited data

Results flagged for a closer look

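ABCC4 was the 1 member whose siRNA differences ran opposite ways in the lines with each larger than the SD between the 2 probes of a gene (0.18 in H520 and 0.21 in LK2 over 3934 genes). It was at -0.23 in H520 and 0.23 in LK2, a gap of 0.46 on the log2 scale. With 1 array per group the difference was not tested. The gap was mostly that of 1 of its 2 probes, at -0.43 and 0.40, while the other was at -0.03 and 0.06.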

How the results depend on the processing

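For SOX2 siRNA over both lines, 1 member (ABCC3) in place of 0 was called higher with a variance trend, with 1 probe per gene and with every probe tested separately. Over all genes these settings called 10, 20 and 25 higher and 12, 22 and 26 lower, in place of 1 and 0. Renewed quantile normalization, testing only genes above the median line difference, and no replicate block (no term for cell line) each called 0 higher. For the line difference, 2 members higher and 4 lower were called when only genes above the median siRNA difference were tested (1506 and 1396 over all genes). ABCB1, ABCC4, ABCB9 and ABCC8 did not enter that test, and ABCA1 and ABCE1 entered it and did not pass. Every probe separately gave 8 member probes higher and 10 lower, of 3719 and 3676 probes called. Renewed quantile normalization and no replicate block for siRNA each left 5 members lower, while the count over all genes went from 2522 to 1953 and 2095. The renewed normalization gives columns of unequal spread the same spread, so values that changed under it cannot show whether a line difference depends on scaling. At 1.5-fold, 4 members were lower in LK2 on controls in place of 1 (8.57% of all genes) and 3 higher in place of 2 (9.06%). Signs turned only for small siRNA or line differences with no call: with 1 probe per gene ABCA6 was at 0.0016, ABCB1 at -0.034 and ABCB8 at -0.020, with renewed quantile normalization ABCB1 was at -0.0018, ABCC4 at -0.10, ABCD2 at -0.0077, ABCG4 at 0.0021 and ABCB10, between lines, at -0.012, and with columns centred on their medians ABCB10 was at -0.0052. The cause of these shifts was not tested. Of 690 single values under an alternative, 665 kept their direction and call or moved by less than the SD between probes. For many of these the difference itself could not move. The median equals the mean for genes with 1 or 2 probes, and 1 probe per gene changes nothing for the 21 single-probe members. Variance settings and no block keep every difference and move only its p-value. The count is therefore not a measure of stability. The scanner intensities, background correction and detection filter were not run, because their columns could not be tied to samples. With 1 array per group, leaving out an array leaves no test, and signal over background is unknown.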

Other observations

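Neighbours of members on the chromosome were looked up in RefSeq after the values were seen, and those named here were picked by their values. Of 60 measured neighbours 8 (13.3%) were called higher and 10 (16.7%) lower in LK2, against 14.0% and 13.4% of all genes. Next to members called between the lines there were 22 neighbours, of which 5 were called on the same side as the member and 3 on the opposite side. On chromosome 7 the coding genes CROT, ABCB4, ABCB1 and RUNDC3B follow each other. RUNDC3B was higher in LK2 like its ABC neighbours, by 1.19 on control and 1.70 on SOX2 siRNA arrays (1.44, limma, adjusted p = 0.00090), while CROT was at 0.04 and 0.31 (limma, adjusted p = 0.335). ABCC4, higher in LK2, lies on chromosome 13 between SOX21 and CLDN10. SOX21 was at -1.66 in H520 and -1.21 in LK2 for SOX2 siRNA (limma, adjusted p = 0.0752) and was lower in LK2 (-1.62, limma, adjusted p = 0.000482) and CLDN10 was at -0.11 on controls. ABCG1 lies next to TFF3 on chromosome 21, and TFF3 was lower in LK2 by -3.32 (limma, adjusted p = 6.30e-05). ABCC9 lies next to the potassium channel gene KCNJ8, a partner of its product, which was higher in LK2 (1.91, limma, adjusted p = 0.000789) while ABCC9 was at -0.08 on controls. SLC44A1, next to ABCA1, was higher in LK2 (1.13, limma, adjusted p = 0.000642), opposite to ABCA1.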
